A study of Mus musculus with 30 samples.

Results

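The forkhead (Fox) genes encode transcription factors that share a winged-helix DNA-binding domain, and their positions relative to the replication initiation zones of mouse embryonic stem cells are described here. The family was taken as the protein-coding genes whose symbol is Fox, a letter from a to s and a number, on chromosomes 1 to 19 of the RefSeq annotation of mm10, which gave 41 of 20558 protein-coding genes. The zones come from a wild-type OK-seq library of E14TG2a cells, a widely used mouse stem cell line kept in leukaemia inhibitory factor, the GSK3 inhibitor CHIR99021 and the MEK inhibitor PD0325901, and pulsed with 10 µM of the thymidine analogue EdU for 2 min. It was the 1 of 30 samples, in 17 groups, that had a processed file. The other 29, SCAR-seq libraries of wild-type cells and of 2 clones with histone-binding changes in the helicase subunit MCM2, were not analysed here. There was therefore no second group and no replicate error, and the depth of the library is unknown. Every count below describes a single list, and no test was possible.

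Replication of a mammalian chromosome starts at many places, from which forks leave in both directions. OK-seq reads the strand of Okazaki fragments, the short pieces of the lagging strand, and so shows where leftward forks give way to rightward ones. A place of that kind is listed as an initiation zone, with a breakpoint bin of 1 kb and an edge on each side. Forkhead proteins act in many lineages. FoxA proteins open chromatin in endoderm, FoxC and FoxF proteins pattern mesoderm and vessels, FoxO proteins respond to insulin signalling, and Foxm1 drives genes of late cell cycle. Many forkhead genes are silent in stem cells, but expression was not measured in the data used here.

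Promoter sequences are shown for 5 members, those with a start closest to a breakpoint and those whose starts flank the breakpoint of the chromosome 13 cluster. Each sequence is the stretch of 250 bases before the outermost listed start in RefSeq (GRCm38.p6). It is written 5′ to 3′ on the strand of the gene, with CpG dinucleotides in capitals. Of the 3 listed starts of Foxa2, the outermost (chr2:148046970-148047219, minus strand) lay 5.47 kb from a breakpoint and the nearest 3.96 kb. The start of Foxd4 (chr19:24901017-24901266, minus strand) lay 6.48 kb from a breakpoint. The start of Foxd3 (chr4:99656049-99656298, plus strand) lay 10.8 kb away. Those of Foxf2 (chr13:31625566-31625815, plus strand) and Foxc1 (chr13:31806396-31806645, plus strand) lay 86.7 and 94.1 kb on either side of a shared breakpoint.
Foxa2: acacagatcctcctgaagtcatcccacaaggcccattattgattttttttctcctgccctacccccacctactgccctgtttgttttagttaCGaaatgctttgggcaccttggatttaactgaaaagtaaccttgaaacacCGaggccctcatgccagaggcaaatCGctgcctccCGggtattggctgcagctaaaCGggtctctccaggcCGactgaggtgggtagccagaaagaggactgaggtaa
Foxd4: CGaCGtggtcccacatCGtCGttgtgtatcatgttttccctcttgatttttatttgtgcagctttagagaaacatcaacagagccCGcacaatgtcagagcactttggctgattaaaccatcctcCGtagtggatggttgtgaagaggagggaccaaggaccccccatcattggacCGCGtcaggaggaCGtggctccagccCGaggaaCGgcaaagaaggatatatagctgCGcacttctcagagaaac
Foxd3: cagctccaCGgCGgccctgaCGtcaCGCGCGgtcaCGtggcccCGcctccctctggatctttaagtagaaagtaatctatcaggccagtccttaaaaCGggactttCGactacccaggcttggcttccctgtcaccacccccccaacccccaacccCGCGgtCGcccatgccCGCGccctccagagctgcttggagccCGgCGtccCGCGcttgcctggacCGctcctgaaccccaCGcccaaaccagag
Foxf2: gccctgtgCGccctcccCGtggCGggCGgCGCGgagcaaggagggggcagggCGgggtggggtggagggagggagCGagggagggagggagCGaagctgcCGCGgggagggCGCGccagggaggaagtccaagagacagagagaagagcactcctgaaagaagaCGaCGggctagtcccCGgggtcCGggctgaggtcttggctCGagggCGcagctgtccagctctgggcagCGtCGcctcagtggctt
Foxc1: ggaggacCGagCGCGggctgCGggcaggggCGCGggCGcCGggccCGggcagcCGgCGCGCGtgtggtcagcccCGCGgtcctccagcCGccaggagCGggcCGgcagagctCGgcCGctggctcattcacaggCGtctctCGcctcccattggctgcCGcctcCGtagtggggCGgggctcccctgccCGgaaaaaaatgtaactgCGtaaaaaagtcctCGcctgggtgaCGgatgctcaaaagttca
The stretches of Foxa2 and Foxd4 held 6 and 12 CpG dinucleotides, against 21 in Foxd3, 21 in Foxf2 and 29 in Foxc1. Among the other members, Foxk2, with its start 13.5 kb from a breakpoint, held 48, the most of the 26 members with a listed start. Foxi2, at 224 kb, held 3, the fewest. A relation between this count and the distance to a breakpoint was not tested.

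Of the 41 forkhead genes, 19 (46.3%, Wilson 95% interval 32.1 to 61.3%) had an end inside an initiation zone, against 32.4% of all protein-coding genes. The interval reaches below the share of all genes, and it covers counting error only. Within 20 kb of a zone lay 21 members (51.2%), against 38.5% of all genes, so the window added only Foxj2 and Foxc1. The median member was 11.6 kb from the nearest zone (95% order-statistic interval 0 to 173 kb), and the median protein-coding gene 71.2 kb (68.1 to 74.3 kb). To the nearest breakpoint the medians were 100.7 kb for members and 129 kb for all genes. Forkhead genes less than 500 kb apart were also counted as 1 locus, at the nearest of them. The median over 36 loci was then 91.8 kb to a zone and 149.5 kb to a breakpoint, above the per-gene medians of all genes. All genes were not grouped into loci, so these values compare unlike units and neither direction is secure. Of the 36 loci, 16 (44.4%) still had an end inside a zone. Whole genes inside a zone numbered 12 among members (29.3%, Wilson 95% interval 17.6 to 44.5%), against 18.7% of all genes. No member held a breakpoint bin in its body (interval 0 to 8.57%), and of all genes 4.20% did. An end within 50 kb of a breakpoint was found for 16 members (39.0%, interval 25.7 to 54.3%), against 29.1% of all genes. Each of these intervals holds the share of all genes, and these counts were not set beside genes of like length.

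**Figure D1:**
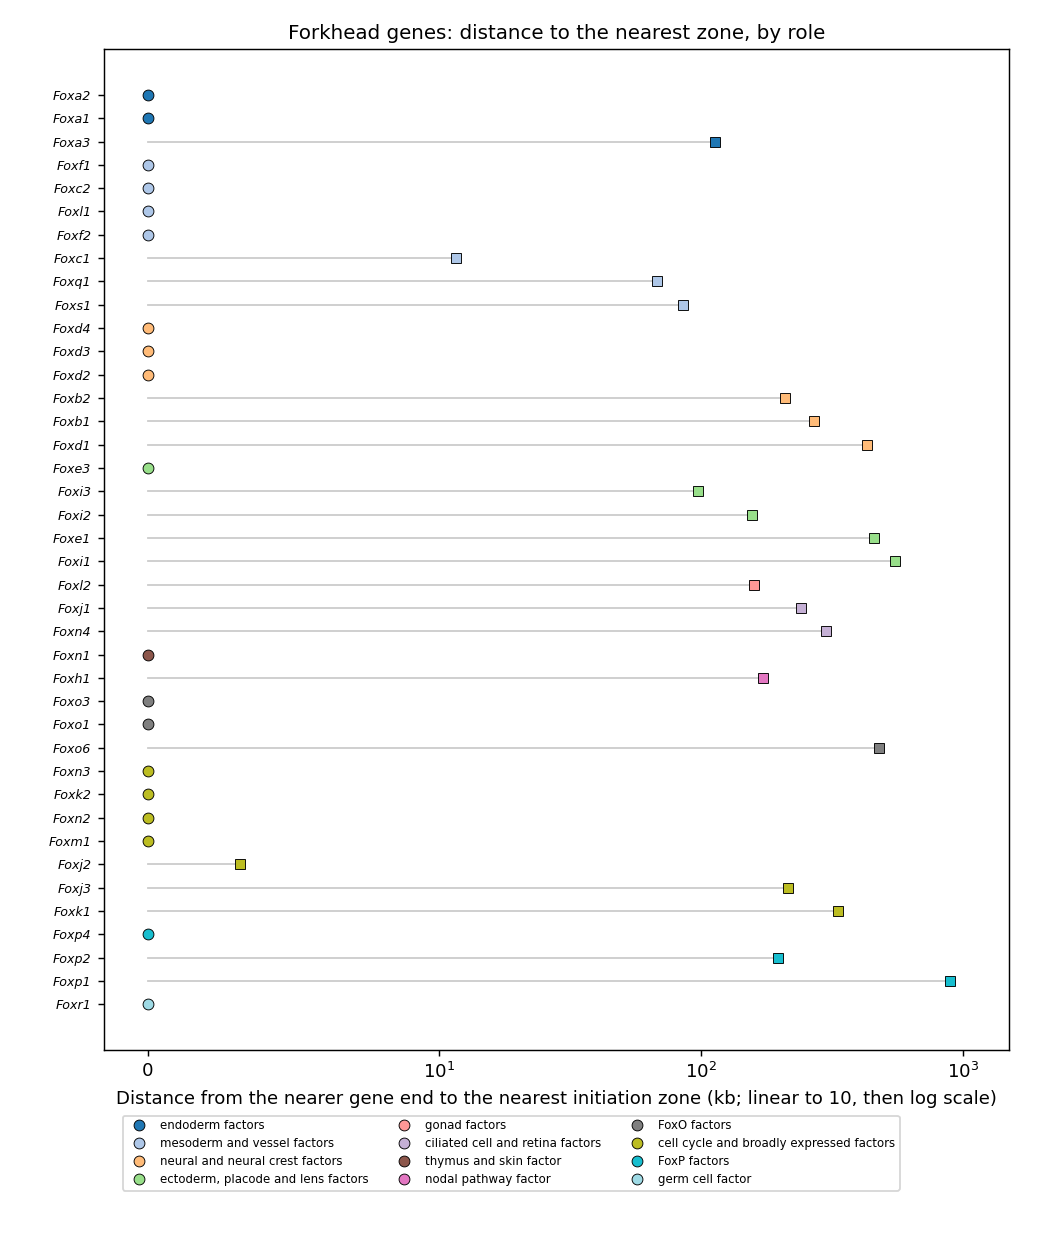
Distance from the nearer end of 40 forkhead genes to the nearest initiation zone, in kb on an axis that is linear to 10 and logarithmic beyond, with genes ordered and coloured by role. Circles mark the 19 members with an end inside a zone, at 0, and squares the 21 others shown, which lie between 3.18 kb for Foxj2 and 898 kb for Foxp1.

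Forkhead genes are short, and the family was set beside genes of like size and surroundings. The median member spanned 4.46 kb, against 17.6 kb for all protein-coding genes. Of the 25 members of 10 kb or less, 11 (44.0%) had an end inside a zone. Among all genes of that length the share was 23.8%, and 28.3% with olfactory and vomeronasal receptor genes left out. Members also lay in sparser surroundings, with a median of 5 other protein-coding genes within 250 kb, against 9 for all genes. Of the 23 members with 5 or fewer such neighbours, 12 (52.2%) had an end in a zone, against 34.3% of all genes in surroundings of that kind. In denser surroundings the share was 7 of 18 members (38.9%), against 31.7% of all genes. The number of breakpoints within 1 Mb was the same, with a median of 3 for members and 3 for all genes.

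The endoderm genes gave the member closest to a breakpoint. Foxa2 (chromosome 2, 148042877 to 148046969), which opens liver and floor plate chromatin, lay wholly inside a zone of 82 kb, with its 3′ end 1.38 kb from the breakpoint. It was the only protein-coding gene with an end in that zone, and no other protein-coding gene lay within 250 kb of it. Foxa1 (chromosome 12, 57540628 to 57548029), its partner in early endoderm, was also wholly inside a zone, at 33.1 kb from a breakpoint. Foxa3, the FoxA gene of later liver, lay outside, 113 kb from a zone.

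Mesoderm and vessel genes had 4 of 7 members with an end in a zone, 3 of them in a single zone, against 32.4% of all protein-coding genes, and 6 of the 7 belong to a pair of clusters held to descend from a common ancestral cluster. On chromosome 8 the cluster spans 46.3 kb, and all 3 genes lay wholly inside a zone of 98 kb. The nearer end of Foxf1, needed for lung and gut mesenchyme and their vessels, lay 11.3 kb left of the breakpoint. The lymphatic vessel gene Foxc2 and the gut mesenchyme gene Foxl1 lay 16.7 and 28.2 kb right of it. The breakpoint bin itself fell in the body of Mthfsd, the 1 other protein-coding gene inside the cluster. On chromosome 13 the cluster spans 252.5 kb, and a zone of 165 kb filled most of the interval between Foxf2 and Foxc1. The 3′ end of Foxf2, which acts in palate and gut mesenchyme, reached 2.41 kb into that zone, 81.1 kb left of the breakpoint. Foxc1, needed for eye and vessel development, lay 94.1 kb right of the breakpoint and 11.6 kb outside the zone, and Foxq1 lay 152 kb left of the breakpoint and 68.0 kb outside. Both clusters therefore had 1 breakpoint within them, placed between the FoxF and the FoxC gene, at spans that differ. Foxs1, the seventh gene of this role, lay 85.9 kb from a zone.

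**Figure D2:**
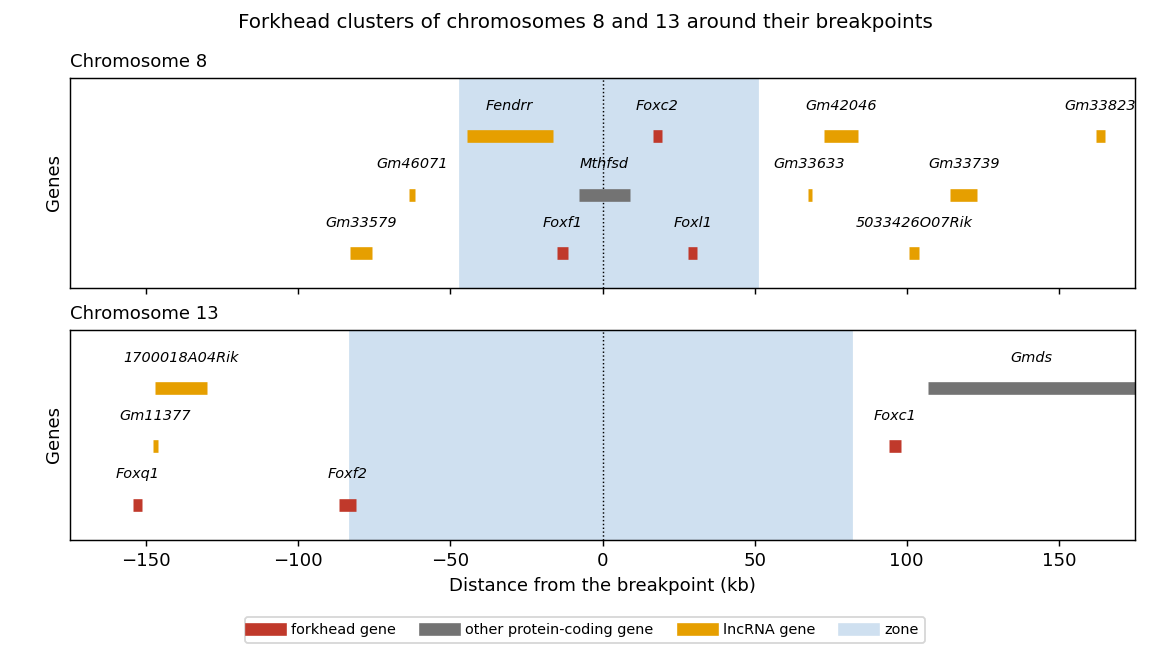
Genes around the breakpoints of the forkhead clusters of chromosomes 8 (top) and 13 (bottom), as distance from the breakpoint in kb, with the zone shaded and forkhead, other protein-coding and lncRNA genes in separate colours; height only separates the labels. In both clusters the dotted breakpoint lies between a FoxF gene and a FoxC gene, with Foxf1 11.3 kb and Foxc2 16.7 kb from it on chromosome 8, and Foxf2 81.1 kb and Foxc1 94.1 kb from it on chromosome 13.

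Of the 7 neural and neural crest genes, 3 had an end in a zone, near the 32.4% of all protein-coding genes, and all 3 belong to the FoxD group. Foxd4 (chromosome 19, 24898943 to 24901016) lay 6.48 kb from a breakpoint. Foxd3 (chromosome 4, 99656299 to 99658671), which is active in both pluripotent cells and neural crest, lay 10.8 kb from a breakpoint and was the only protein-coding gene with an end in its zone. Foxd2 lay 92.6 kb from a breakpoint, near the left edge of a zone of 196 kb that it shares with the lens gene Foxe3, at 75.4 kb. That breakpoint lay in Stil, a gene of centriole duplication, and the blood regulator gene Tal1 also had an end in the zone. The fourth FoxD gene, Foxd1 of kidney stroma, was 430 kb from a zone. Foxb2 and Foxb1 were 209 and 271 kb away.

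Of the 5 ectoderm, placode and lens genes 1, Foxe3, had an end in a zone, against 32.4% of all protein-coding genes. The others were all outside. Foxi3, which acts in placodes and teeth, was the nearest at 97.6 kb, followed by Foxi2 at 156 kb. The thyroid gene Foxe1 was 458 kb and the inner ear and kidney gene Foxi1 554 kb from a zone. Genes of other specialised tissues form role lists of 1 or 2 genes, too few to set against the share of all genes. Foxn1, the thymus and hair gene, had its 3′ end just inside a zone of 68 kb, with 1.42 kb of its body in it, and Foxr1, a little studied member, lay wholly inside a zone of 198 kb at 41.7 kb from the breakpoint. The ovary gene Foxl2 was 160 kb, the motile cilia gene Foxj1 242 kb and the retina gene Foxn4 301 kb from a zone. Foxh1, the partner of Smad proteins in Nodal signalling, was 173 kb away in a crowded region with 29 protein-coding neighbours within 250 kb.

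Cell cycle and broadly expressed genes had 4 of 7 members with an end in a zone, against 32.4% of all protein-coding genes and 37.1% of those over 10 kb. Foxn3 (chromosome 12, 99190081 to 99563667), a repressor of 374 kb, had the boundary on its 5′ side 2.83 kb from a breakpoint, with 28.7 kb of its body in the zone. Foxk2 lay wholly inside a zone of 183 kb, 13.5 kb from the breakpoint, and Foxn2 had an end at 16.0 kb. Foxm1, which drives genes needed for mitosis, lay wholly inside a zone of 161 kb, 29.5 kb from a breakpoint that fell in Tulp3. Foxj2 missed a zone by 3.18 kb, while Foxj3 lay 215 kb and Foxk1, the paralogue of Foxk2, 335 kb from one.

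The FoxO genes, whose proteins respond to insulin signalling, had 2 of 3 members in zones, against 32.4% of all protein-coding genes. Foxo3 had its 5′ end 16.8 kb from a breakpoint, and Foxo1 its 3′ end 34.4 kb from one, while Foxo6 was 479 kb from a zone. Of the FoxP genes, Foxp4 had its 5′ end 18.9 kb from a breakpoint. The 2 other autosomal FoxP genes are among the longest members. Foxp2, a gene of 541 kb linked to speech in humans, lay 197 kb from a zone, and Foxp1, a gene of 597 kb, lay 898 kb from one, the farthest of all members and with no breakpoint within 1 Mb of its midpoint.

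Paralogues were not placed alike in every subfamily. By their letter the 41 genes form 19 subfamilies, 13 of them with more than 1 member. In 9 of these 13 some members had an end in a zone and others did not. In 3 (FoxB, FoxI and FoxJ) none had, and in 1 (FoxF) all had. These counts were not set against any other grouping of the genes.

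The 19 genes lay in 16 zones. Their median width was 131 kb (95% order-statistic interval 82 to 165 kb), against 112 kb for all 2844 zones and 116 kb for the 2395 zones with an end of a protein-coding gene, and the interval holds both values. An arm is the distance from the breakpoint to an edge, and the list holds no arm over 100 kb. That limit was reached on at least 1 side in 8 of the 16 zones (50.0%), against 9.56% of all zones and 10.5% of the zones with a gene end. Counted by genes, 9 of the 19 members in zones (47.4%) lay in a zone at the limit, against 14.4% of all protein-coding genes in zones. The right arm was the one at the limit in 7 of the 8 and the left arm in 1, whereas over all zones 140 right and 139 left arms were at it. With both arms below the limit the median width turned the other way, at 90 kb for the zones of members and 106 kb for all zones. Widths at the limit may be understated, and this feature was picked out after the values were seen. In 10 of the 16 zones no protein-coding gene body overlapped the breakpoint bin (62.5%, against 69.5% of all zones and 68.1% of those with a gene end). In the 6 others the bin overlapped Stil, Tulp3, Mthfsd, Hyou1, Spag5 or Narf. Hyou1 reached into its bin but not to the centre of it. A forkhead gene was the only protein-coding gene with an end in 6 of the 16 zones (37.5%), those of Foxa2, Foxo1, Foxd3, Foxn3, Foxf2 and Foxp4, against 26.7% of all zones with a gene end. In the 10 other zones the end of another gene was nearest to the breakpoint or next after the forkhead gene. It lay within 1 kb for Hyou1 (0.131 kb), which is in the zone of Foxr1, and at 1.39 kb for Stil. Mthfsd, Spag5 and Narf followed at 7.87, 8.03 and 9.26 kb, and Cbwd1 (zone of Foxd4) and Tulp3 at 12.1 and 12.4 kb. Afg1l (zone of Foxo3), Ppp1r21 (zone of Foxn2) and Ttc6 (zone of Foxa1) were the most distant, at 19.1, 23.6 and 39.2 kb. Among protein-coding genes, the end nearest to the breakpoint was that of a forkhead gene in 10 of the 16 zones. These include the 6 zones with no other protein-coding gene end, where no other outcome was possible. No share for zones of like gene number was computed. In 5 of the 10 zones with a forkhead end nearest, an end of a non-coding gene lay nearer still.

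**Figure D3:**
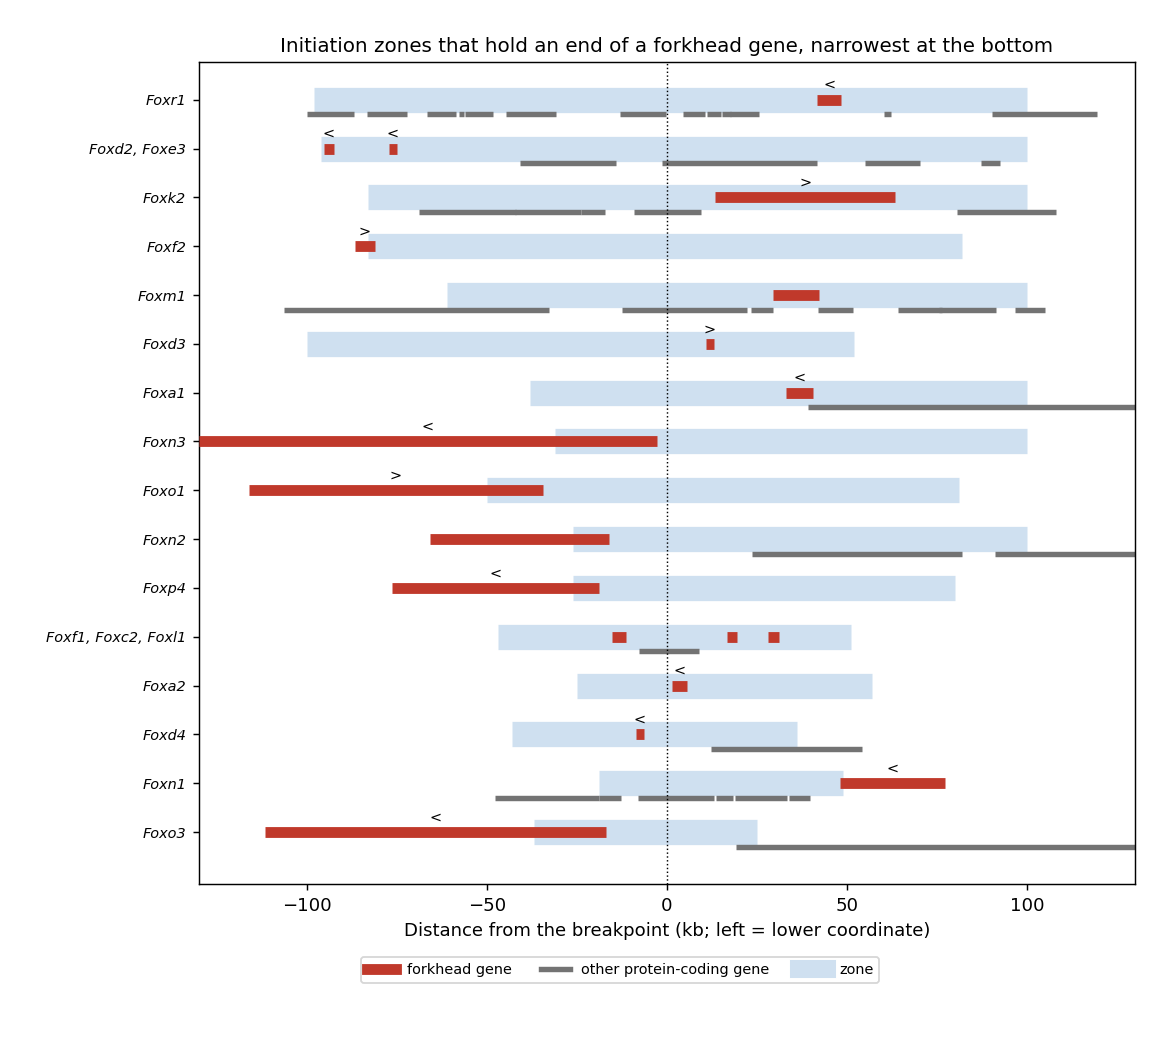
The 16 zones that hold an end of a forkhead gene, as distance from the breakpoint in kb, with forkhead genes, other protein-coding genes (drawn lower) and the zone in separate colours; arrowheads give the direction of transcription where a start is listed, and genes are cut at the plot edge. No forkhead gene lies over the dotted breakpoint, and the nearest are Foxa2 at 1.38 kb and Foxn3 at 2.83 kb.

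A start site and thereby a strand was listed for 26 of the 41 members. Of these, 10 (38.5%) had a start inside a zone, against 28.0% of all genes with a listed start. Among the 14 members with a listed start and an end in a zone, 8 (57.1%) were transcribed away from the breakpoint, the direction in which a fork from that breakpoint would travel, against 59.9% of all genes placed like them. The share was thus close to that of all genes. Split at 20 kb after the values were seen, 6 of the 7 members with the nearer end within 20 kb ran away from the breakpoint (60.6% of all genes at that distance did), and Foxa2 ran towards it. Farther out it was 2 of 7 (59.5% of all genes), and those 2, Foxd2 and Foxe3, share a zone. With 7 genes on each side these counts are a description only.

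Promoters of forkhead genes had a high GC content, both for genes with an end in a zone and for the others. The split is by gene ends, so a promoter of the first group need not lie in a zone. Of the 26 members with a listed start, 10 had that start inside a zone. The window of Foxn3, which lies inside the annotated gene, is counted in the first group. Over the 250 bases before the outermost listed start, the median GC content was 62.6% for the 14 members with an end in a zone. All genes with an end in a zone had 59.4%. For the 12 other members it was 65.8%, against 53.6% for all genes outside zones. All 16457 genes with a listed start together had 55.6%. CpG dinucleotides had a median of 18 in members in zones and 17.5 in members outside. Among all genes those in zones had the higher CpG count, with a median of 15, against 7 for genes outside. The GC box GGGCGG, searched on both strands, was present in 19 of 26 member promoters (73.1%), against 43.6% of all promoters. For members with an end in a zone it was in 8 of 14 promoters (57.1%), against 56.1% for all genes placed likewise. For members outside zones it was in 11 of 12 (91.7%), against 37.7% for all genes outside. The core forkhead site TAAACA, on both strands, was in 2 of 26 (7.69%), those of Foxa1 and Foxp1, against 10.5% of all, and the CCAAT box CCAAT in 12 of 26 (46.2%), against 36.3% of all. A match describes letters in this window and is not a bound site.

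Other families of developmental transcription factors had lower shares in zones. An end inside a zone was found for 19 of 41 forkhead genes (46.3%), 6 of 18 Sox genes (33.3%), 5 of 16 T-box genes (31.2%), 3 of 9 Pax genes (33.3%) and 8 of 39 Hox genes (20.5%), against 32.4% of all protein-coding genes. The Wilson interval of the forkhead share overlapped those of Sox (16.3 to 56.3%), T-box (14.2 to 55.6%), Pax (12.1 to 64.6%) and Hox genes (10.8 to 35.5%). These differences were not tested, and genes of a cluster share their surroundings.

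**Figure D4:**
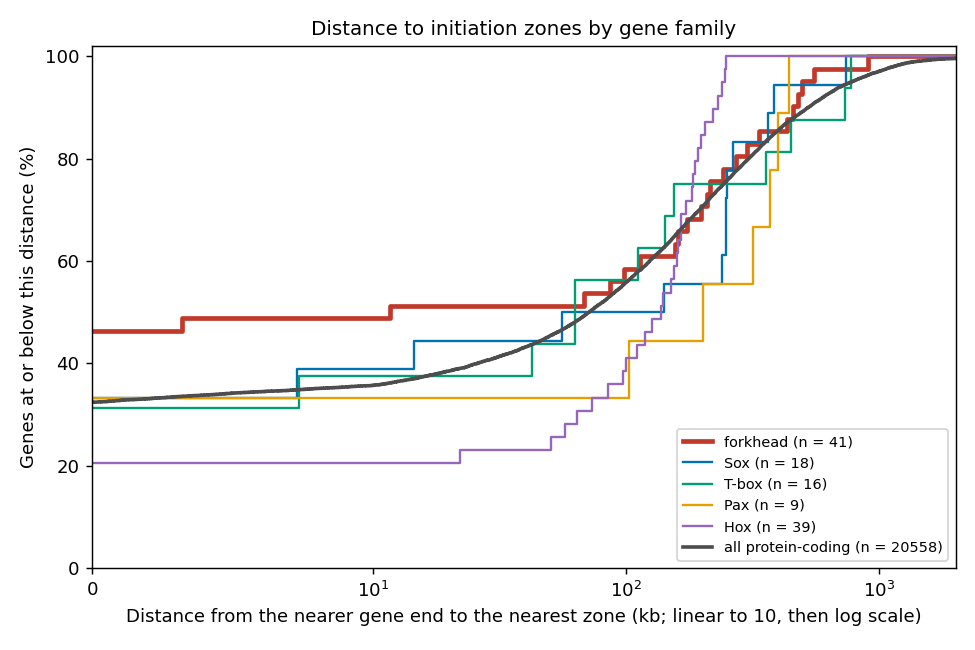
Cumulative share of genes, in percent, by the distance from the nearer gene end to the nearest zone, in kb on an axis that is linear to 10 and logarithmic beyond, for forkhead, Sox, T-box, Pax and Hox genes and for all protein-coding genes. The forkhead curve starts at 46.3%, above the 32.4% of all genes, and runs beside the curve of all genes beyond about 100 kb.

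Of 25 genes that regulate forkhead proteins or act with them, 12 (48.0%) had an end inside a zone, against 32.4% of all genes. These genes are long, with a median of 68.3 kb. The direction turned with gene midpoints (3 of 25, 12.0%, against 22.5% of all genes) and with the central part of the zone (4 of 25, 16.0%, against 18.4%). It also turned for whole genes inside a zone (2 of 25, 8%, against 18.7%). It held with any base of the gene body (48.0% against 32.9%) and with wide zones only (24.0% against 20.1%). Nodal, the ligand whose signal reaches Foxh1 through Smad proteins, had an end 0.838 kb from a breakpoint that lay in its body. Ctnnb1, which encodes the FoxO partner beta-catenin, lay 8.90 kb from a breakpoint. Genes for upstream steps of insulin signalling were also among the 12, with Pik3cb at 30.3 kb, Pik3r1 at 31.3 kb and Pdpk1 at 40.9 kb from a breakpoint, while Pik3ca lay outside, 2.89 kb from a zone. The kinase genes that act on FoxO proteins directly were mostly outside. Akt1 and Akt2 were 265 and 356 kb from a zone, Sgk1 was the farthest of the list at 707 kb, and Sgk3 had an end in a zone. Smad2 and Smad4 each had an end in a zone and Smad3 lay 205 kb from one.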

How the data were processed

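The deposited file of the wild-type OK-seq sample lists 2844 initiation zones on chromosomes 1 to 19. Per the file headers, its values are distances in bp between bins of 1 kb, with no counts or signal. Per the submitters' processing notes, the build was mm10 and the tools were SAMtools, Picard 2.8.2, Trim Galore 0.4.2, Bowtie, bcl2fastq and BWA 0.7.13; for the caller of the zones, no name was given in the sources used here. Genes came from RefSeq (GRCm38.p6, the same build), with 333 genes on scaffolds left out, and 3 X-linked forkhead genes were not analysed here. A gene was inside a zone when either of its ends lay between the zone edges, and a distance to a breakpoint was measured from the centre of its bin, so values well below 1 kb do not rank genes. Starts and strands came from the RefSeq promoter table, which holds 26 members and 16457 genes, and the outermost start was used for sequences. Python 3.11.15, pandas 2.3.3, NumPy 2.4.6 and SciPy 1.17.1 were used, and the distance functions were tested on simulated data. With 1 library no test across samples was possible and no p-value was computed.

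Members, role lists and the list of regulators were chosen with earlier results of these data known. Every member in a zone is named, of the others at least the 5 nearest and 5 farthest, of which some are not reported here, in each zone the nearest other gene, and regulators within 10 kb of a breakpoint or farthest from a zone; Sgk3, Pik3ca, Pik3cb, Pik3r1, Pdpk1, Tal1, the Akt and Smad genes, and the promoters of Foxd4, Foxd3, Foxf2 and Foxc1 were chosen after their values were seen. The rule for promoters also picks Foxn3, whose listed start lies inside the annotated gene, 116 kb from the breakpoint; it is not shown. Alternatives were other limits, gene midpoints, bodies or starts, wide, merged or central zones and counts per locus.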

Additional observations from a re-analysis of the deposited data

How the results depend on the processing

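Of 34 alternatives, 20 left the count within 1.5 times of the reported one or the median within its interval, and 14 did not. The 19 forkhead genes with an end in a zone became 11 when zones narrower than the median were dropped, 12 with gene midpoints, 10 with the transcription start (26 members have one) and 10 with the central part of the zone, where all protein-coding genes gave 20.1, 22.5, 28.0 and 18.4%, against 26.8, 29.3, 38.5 and 24.4% of members. The 21 within 20 kb became 13 with wide zones only and 13 with starts, the 0 with a breakpoint in the body became 2 with 5 kb added on each side, and the 16 within 50 kb of a breakpoint became 10 at 20 kb and 8 with starts. The median distance to a zone of 11.6 kb became 258 kb with wide zones only. The 12 of 25 regulators in zones became 6 with wide zones only (24.0%, against 20.1% of all genes) and 3 with midpoints (12.0%, against 22.5%). They became 4 with the central part (16.0%, against 18.4%). With starts they became 6, but some of the 25 have no listed start. Fewer zones, a smaller zone or fewer genes enter these settings by construction. Counted per locus, 16 of 36 loci had an end in a zone. The medians of 91.8 kb to a zone and 149.5 kb to a breakpoint stayed within the intervals. They passed those of all genes, which were counted per gene and not per locus. No paired analysis was possible because a single library had a processed file, and no library could be left out. The depth behind the list is unknown, so whether genes outside zones lie in places with little coverage was not tested.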

Other observations

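Non-coding genes also had ends in most of the zones that hold a forkhead gene, some of them close to the breakpoint. The 16 zones held an end of 36 genes that are not protein-coding, 20 of them lncRNA genes. Of the 36, 2 lay over a breakpoint, both lncRNA genes. No such count was made over all zones, so these numbers do not set forkhead zones apart from other zones. At Foxa2 the breakpoint lay between the coding gene, at 1.38 kb, and the lncRNA gene 9030622O22Rik, whose nearer end was 0.987 kb away on the other side. At Foxa1 the breakpoint fell in the lncRNA gene Gm20016, and at Foxn3 in Gm26839, whose end lay 2.66 kb from it. Fendrr, the lncRNA gene next to Foxf1 that acts in mesoderm, lay wholly inside the chromosome 8 zone with its nearer end 16.4 kb from the breakpoint. Foxd2os, beside Foxd2, lay 80.4 kb from its breakpoint.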
